A study of Homo sapiens with 36 samples.

Results

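Chromatin-bound RNA was compared between DIS3-AID cells given 500 uM auxin for 1 h and the same cells left untreated, with 3 libraries on each side, or 6 of the 36 libraries in the series. The members are the libraries that the labels place in those 2 groups. The cells derive from HCT116, a human colon carcinoma line, that constitutively makes TIR1, the plant F-box protein through which auxin directs tagged proteins to the proteasome. The DIS3-AID cells are a CRISPR clone whose DIS3 carries the auxin-inducible degron, so that line effects of 1 clone cannot be told apart from those of the tag. Untreated DIS3-AID cells carry the same tag and the same TIR1, and by the labels differ from the treated cells in auxin alone. A control line without the tag was handled in the same way (3 chromatin libraries untreated, 3 with 500 uM auxin for 1 h) and served here to measure what auxin does without the degron. The cytoplasmic total RNA of the same groups (3 libraries each) was used to set the chromatin response beside that of the cytoplasm. The design text describes the cytoplasmic triplicates as technical, and nothing says that the chromatin libraries came from separate cultures, and p-values therefore describe nothing beyond the spread among these libraries.

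The RNA exosome is a barrel of catalytically inactive subunits that threads RNA to ribonucleases, of which DIS3 is the processive one in the nucleoplasm and EXOSC10 (RRP6) works mainly in the nucleolus. Cofactor complexes bring it its substrates: NEXT and PAXT for nuclear transcripts, and TRAMP for nucleolar ones. Known substrates are promoter upstream transcripts and divergent transcripts, which arise when RNA polymerase II fires backwards from a promoter, enhancer RNAs, and the extended precursors of small nuclear and small nucleolar RNAs. The chromatin fraction holds nascent transcripts still attached to polymerase together with RNAs that are retained at the template.

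The 6 libraries held between 53.7 M and 89.2 M counts over 33269 to 34948 detected features. Levels are given as CPM, counts relative to library size after scaling by the trimmed mean of M values (TMM), and changes as log2 ratios from edgeR's quasi-likelihood test with Benjamini-Hochberg adjustment over all 24966 tested features, with adjusted p under 0.05 as the call. DIS3 RNA (ENSG00000083520.14, chromosome 13, 72752169 to 72782096, minus strand, hg38) stood at 37.5, 30.4 and 33.3 CPM in the untreated libraries and at 31.0, 33.1 and 37.5 CPM in the auxin libraries, a log2 change of 0.01 ± 0.08 (SE, adjusted p = 0.978). The groups overlap, and because the degron acts on the protein, these levels do not measure its removal. The untreated clone held less DIS3 RNA than the untreated control line did, at 33.7 ± 3.5 against 54.8 ± 1.1 CPM (SD, n = 3). Of 12 colon epithelial markers 9 were tested, with a summed level of 350 to 373 CPM untreated and 325 to 366 CPM with auxin. KRT20, LGALS4 and CEACAM5 were too low to test. Log2 changes of the 9 ranged from -0.64 to 0.34 (median -0.12). The 1 called was KRT19, which rose by 0.34. Of the 6 markers of blood cells and the 6 of fibroblasts, 1 each passed the filter on low counts: HBB, at 0.115 CPM untreated and 0.0352 CPM with auxin, and COL1A1, at 12.8 and 11.8 CPM, neither called. Of 3 endothelial markers 2 were tested, with summed levels of 3.96 to 4.35 CPM untreated and 3.78 to 4.20 CPM with auxin. Their part in the results was not tested. In bulk RNA, fewer cells of a kind and less RNA per cell cannot be told apart. How reads in a stretch shared by overlapping genes were counted is not given, so such genes may hold the same reads. Among the genes named here, CYP1B1 overlaps RMDN2-AS1, CHRM5 overlaps AC009268.1, NIPAL2 overlaps RNU6-914P, AC004754.1 overlaps FAM234A and ARHGDIG, AHRR overlaps PDCD6, CD44 overlaps AL133330.1, LINC01090 overlaps RNA5SP114 and CHD1-DT overlaps AC022121.1. AC244517.11 overlaps AC244517.2, AC244517.4 and AC244517.7. Host transcripts overlap the small RNAs inside them, and RPS13 overlaps SNORD14A, SNORD14B and PIK3C2A.

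Over all tested features, 2741 were higher with auxin (11.0% of those tested) and 2382 were lower (9.54%), or 20.5% in all. The median log2 change was 0.00, and the split depends on the scaling: with library sizes alone 2139 were higher and 3351 lower, and with factors from protein-coding genes 3300 and 1857. Large changes went mostly upwards, with 737 features at least 2-fold higher (2.95%) and 85 at least 2-fold lower (0.340%). Of the 737, 418 were loci known only by an assembly number, described below. With Ensembl genes only, 319 were at least 2-fold higher, and the calls numbered 2091 higher and 2186 lower. Without overlap between the 2 groups of libraries, 4474 features were higher (17.9%) and 4315 lower (17.3%). In the control line 2253 were higher (9.02%) and 1989 lower (7.97%), with 134 (0.537%) and 76 (0.304%) at least 2-fold. The difference between the lines (DIS3-AID response minus control response) was positive in 2131 features (8.54%) and negative in 2298 (9.20%). With library sizes alone these counts were 1513 and 3193, and with factors from protein-coding genes 2519 and 2015. The 2131 and 2298 included 1297 of the 2741 rises (47.3%) and 1197 of the 2382 falls (50.3%). The untreated DIS3-AID libraries enter both the auxin effect and this difference, so the 2 are not independent.

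The features that moved differed by kind of gene. Of 5185 lncRNAs 889 rose and 263 fell (median log2 change 0.11), while of 14629 protein-coding genes 939 rose and 1963 fell (median -0.03). With library sizes alone the counts were 718 and 346 for lncRNAs and 595 and 2789 for protein-coding genes, and with factors from protein-coding genes 1014 and 211, and 1294 and 1520. Among protein-coding genes only 32 rises and 30 falls reached 2-fold. Of 346 small nucleolar RNA genes 74 rose (21.4%) and 3 fell (0.867%). Of 305 small nuclear RNA genes 35 rose (11.5%, near the 11.0% of all features) and 3 fell (0.984%), with a median of 0.05. The 1005 tested loci that carry an assembly number in place of a gene name rose in 635 cases and fell in 1 (median 0.87, against 0.09 in the control line). Whether those loci were assembled from these libraries is not given in the sources used here, so their direction is a description. As a share of all counts, lncRNAs went from 6.97% ± 0.03 to 7.54% ± 0.14 (SD, n = 3) and assembled loci from 0.670% ± 0.014 to 0.871% ± 0.021. Genes annotated as snoRNAs (box C/D, H/ACA, Cajal body RNAs and others) went from 0.0991% ± 0.0038 to 0.116% ± 0.005, and protein-coding genes from 90.5% ± 0.1 to 89.7% ± 0.2. For these 4 of the 7 classes compared the groups did not overlap, with a two-sided exact permutation p = 0.1 for each, the smallest that 3 against 3 libraries can give. The share of snRNA genes was 0.0385% ± 0.0008 untreated and 0.0393% ± 0.0011 with auxin (exact permutation p = 0.4), and p was 0.7 for mitochondrial genes and 0.3 for pseudogenes by the same exact test. In the control line the lncRNA share was 7.14% ± 0.03 untreated and 7.28% ± 0.17 with auxin (exact permutation p = 0.4).

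Among genes with a symbol and at least 1 CPM with auxin, the largest rise on chromatin was that of a gene of U1 small nuclear RNA, the RNA that pairs with 5′ splice sites. Human cells carry, beside the main U1 genes, variant U1 genes (RNVU1) that lie mostly on the long arm of chromosome 1 and differ from the main RNA at scattered bases. The 4 sequences below are the main RNA from RNU1-1, 2 variants among the largest rises, and 1 variant near the main RNA in sequence. They come from GENCODE 29 transcripts on hg38 (RNU1-1 chr1:16514122-16514285, minus strand; RNVU1-22 chr1:148263476-148263632, plus; RNVU1-14 chr1:145281116-145281279, plus; RNVU1-31 chr1:145465617-145465780, minus). Capitals mark bases that differ from RNU1-1 or are inserted relative to it in a global alignment.
RNU1-1: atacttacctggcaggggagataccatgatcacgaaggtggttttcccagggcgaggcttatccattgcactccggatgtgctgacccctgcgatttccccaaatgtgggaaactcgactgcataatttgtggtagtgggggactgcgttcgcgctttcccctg
RNVU1-22: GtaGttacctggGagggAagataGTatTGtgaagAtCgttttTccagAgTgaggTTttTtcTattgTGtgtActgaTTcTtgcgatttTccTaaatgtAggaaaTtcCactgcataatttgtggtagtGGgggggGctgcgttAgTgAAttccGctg
RNVU1-14: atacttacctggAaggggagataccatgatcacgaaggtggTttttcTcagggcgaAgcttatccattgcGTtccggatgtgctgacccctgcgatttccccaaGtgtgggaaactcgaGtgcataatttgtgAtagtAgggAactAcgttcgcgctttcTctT
RNVU1-31: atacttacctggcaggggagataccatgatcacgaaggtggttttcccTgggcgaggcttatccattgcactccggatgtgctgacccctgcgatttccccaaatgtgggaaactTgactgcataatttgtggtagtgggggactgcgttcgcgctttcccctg

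RNVU1-22 (ENSG00000199879.1) stood at 0.200, 0.179 and 0.165 CPM in the untreated libraries and at 2.24, 2.34 and 3.09 CPM with auxin. That is a 13.8-fold rise (log2 3.79 ± 0.23 SE, adjusted p = 2.98e-09). RNVU1-14 (ENSG00000207501.1) went from 0.568, 0.661 and 0.708 CPM to 4.47, 6.62 and 6.94 CPM, a 9.33-fold rise (log2 3.22 ± 0.19, adjusted p = 4.65e-09). Every treated library lay above every untreated one for both genes. In the control line RNVU1-14 held 0.547, 0.546 and 0.787 CPM untreated and 0.608, 0.806 and 0.478 CPM with auxin, which overlap. RNVU1-25 rose 10.6-fold, RNVU1-34 9.21-fold, RNVU1-19 6.17-fold and RNVU1-27 5.30-fold. The lncRNA model AC245014.3, which begins at the first base of RNVU1-14 and runs past its end, rose 8.70-fold and may hold the same reads.

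Of the 19 variant U1 genes tested, 15 rose, 14 of them at least 2-fold, and none fell (median log2 change 1.66, against 0.00 over all features). In the control line edgeR called none (median 0.01), with 1 of the 19 at an unadjusted p under 0.05 and 0 called by DESeq2. Their summed level lay between 15.1 and 15.3 CPM in the untreated libraries and between 31.2 and 40.4 CPM with auxin, and 13 of the 15 rises passed the test against the control line. The 4 that were not called were RNVU1-1, RNVU1-7, RNVU1-32 and RNVU1-33. RNVU1-31, the gene printed above with 2 mismatches to RNU1-1 (98.8% identity), was among the 2 most abundant, at 5.03 ± 0.19 CPM untreated and 6.02 ± 0.55 CPM with auxin (SD, n = 3), and rose by 0.25 on the log2 scale. Identity to RNU1-1 ranged from 71.8% to 100% among the 14 genes with a rise of at least 2-fold and from 70.2% to 99.4% among the other 5, so the 2 ranges overlap. RNU1-1 itself rose by 1.10 (adjusted p = 0.00597), while RNU1-4 had a log2 change of 0.91 (adjusted p = 0.125) and RNU1-2 of 0.58 (adjusted p = 0.318). RNVU1-29 is identical to RNU1-1 in sequence, as are RNU1-2 and RNU1-4, and how the counting placed reads that fit several of these genes is not given, so their values are uncertain. The first 10 bases, which pair with the 5′ splice site, match those of RNU1-1 in 9 of the 19, of which 6 rose, and differ in 10, of which 9 rose. Of 14 tested U1 pseudogene copies elsewhere in the genome edgeR and DESeq2 each called 0 and none had an unadjusted p under 0.05 (median 0.02, range -0.72 to 0.49).

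**Figure D1:**
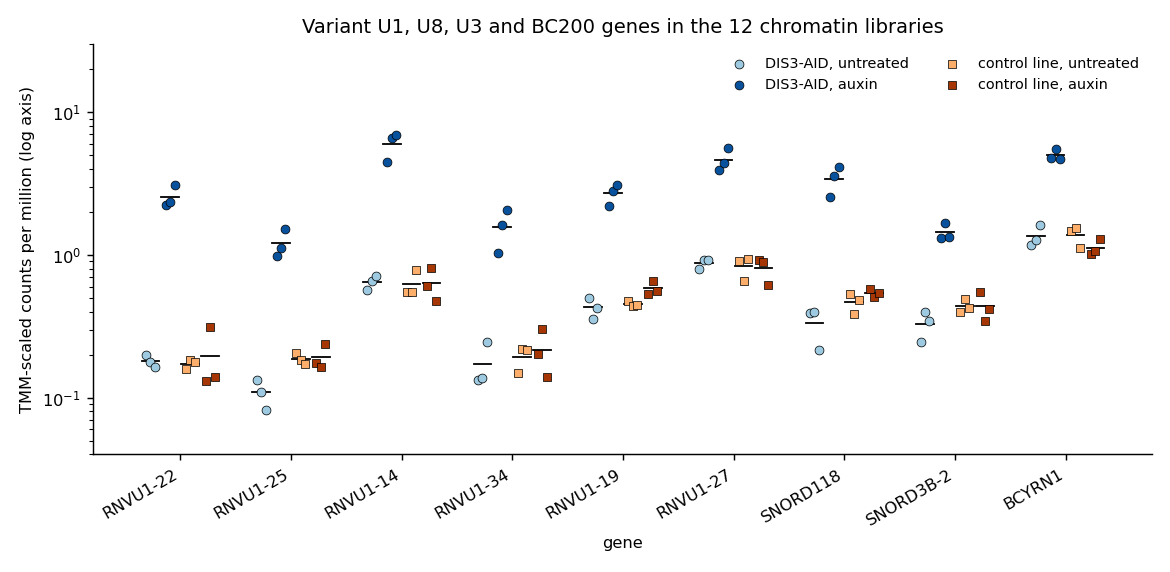
TMM-scaled CPM (log axis) of 9 small RNA genes in each of the 12 chromatin libraries; points are libraries, horizontal bars are means of 3, blue circles the DIS3-AID line and orange squares the control line. For each of the 9 genes the 3 auxin libraries of the DIS3-AID line lie above the 3 untreated ones.

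Of the 14 other spliceosomal snRNA genes tested, RNU1-1, RNU1-2 and RNU1-4 among them, 8 rose and 1 fell (median 0.89). Together with the variants 23 of 33 rose (median 1.32), and in the control line edgeR called none of the 33, with 1 at an unadjusted p under 0.05 and 0 by DESeq2. RNU11, of the minor spliceosome, went from 0.524 to 1.88 CPM (log2 1.86, adjusted p = 2.55e-06), and RNU12, which recognises the branch point of minor introns, from 0.941 to 1.75 CPM (log2 0.88, adjusted p = 0.000332). The U5 genes RNU5F-1 (log2 1.85) and RNU5D-1 (1.49) also rose. RNU6-2, a U6 gene transcribed by RNA polymerase III, rose by 1.90 (adjusted p = 4.58e-07). RNU4-2 was the 1 fall, from 4.30 to 3.01 CPM (log2 -0.52, adjusted p = 0.0467), and was not called when untreated library 1 or 2, or auxin library 2 or 3, was left out.

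Genes and copies of U3, U8 and U13 had a higher median change than the other box C/D snoRNA genes, a split made by gene name. SNORD118 encodes U8, needed for the 5.8S and 28S ribosomal RNAs, and lies on chr17:8173454-8173587 (minus strand, ENSG00000200463.1) inside the last part of TMEM107. It is printed from GENCODE 29 with the box C and box D motifs that define its class in capitals.
SNORD118: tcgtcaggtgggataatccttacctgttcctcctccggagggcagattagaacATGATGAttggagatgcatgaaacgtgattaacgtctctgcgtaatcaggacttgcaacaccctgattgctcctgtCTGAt
SNORD118 had 0.390, 0.400 and 0.214 CPM in the untreated libraries and 2.55, 3.55 and 4.15 CPM with auxin, a 9.82-fold rise (log2 3.30 ± 0.21 SE, adjusted p = 4.81e-09) without overlap. TMEM107, a ciliary transition zone gene that holds SNORD118 on the same strand, went from 2.99 ± 0.19 to 6.86 ± 1.08 CPM (SD, n = 3), and its count may include reads of SNORD118.

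U3, the snoRNA that starts pre-ribosomal RNA cleavage, has several gene copies. SNORD3B-2 held 0.245, 0.400 and 0.346 CPM untreated and 1.31, 1.66 and 1.34 CPM with auxin (log2 2.13, adjusted p = 8.02e-07), and SNORD3D rose by 2.32. A U3 copy in TEX14 (ENSG00000212195.2, chr17:58631641-58631836, minus strand) went from 0.757, 0.565 and 0.938 to 4.56, 5.52 and 6.63 CPM, a 7.42-fold rise. All treated libraries were above all untreated ones in these 3 genes. Over the 14 tested genes and copies of U3, U8 and U13, 8 rose and none fell (median 1.09), and in the control line edgeR and DESeq2 called 0, none at an unadjusted p under 0.05. Over the other 135 box C/D snoRNA genes, 36 rose and none fell, with a median of 0.17. Box H/ACA genes, whose RNAs guide pseudouridylation, had a median of 0.15. Of the 124, 24 rose (19.4%) and 3 fell (2.42%), beside 11.0% and 9.54% of all features. That count of rises was 11 without untreated library 3, 12 without auxin library 3, and 14 without untreated library 2 or auxin library 2, and that of falls was 0 or 1 without any single library. None of 23 Cajal body RNAs was called by edgeR or DESeq2, with 4 at an unadjusted p under 0.05 and medians of 0.17 on chromatin and 0.53 in the cytoplasm, where 9 of 18 rose.

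RNA polymerase III transcripts gave 5 rises among 10 tested genes, a count that was 2 without untreated library 2 or auxin library 2 and 3 without untreated library 3. BCYRN1, which encodes the small RNA BC200 that represses translation, stood at 1.17, 1.28 and 1.63 CPM untreated and 4.76, 5.52 and 4.69 CPM with auxin. It rose 3.71-fold (log2 1.89, adjusted p = 3.47e-08) and did not overlap between groups, while the control line showed 1.38 ± 0.23 and 1.13 ± 0.15 CPM (SD, n = 3). RN7SK, the scaffold that holds P-TEFb inactive, had 204 and 194 CPM and was not called (log2 -0.07, adjusted p = 0.603).

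Divergent transcripts, the lncRNAs that carry the suffix DT after the name of the gene they point away from, numbered 390. Of these 134 rose (34.4%) and 21 fell (5.38%), with a median of 0.29, beside 11.0% and 9.54% over all features. In the control line the counts were 37 higher and 33 lower (median 0.00), and 78 of the 134 rises passed the test against it. MAN1B1-DT (ENSG00000268996.3, chromosome 9, minus strand, ending at 137086817) points away from MAN1B1, a mannosidase of glycoprotein quality control that begins at 137086927 on the plus strand. Its RefSeq promoter window (chr9:137086768-137087067, GRCh38.p14) is printed in its own direction with the first 50 transcribed bases in capitals, because the same short stretch serves both genes.
MAN1B1-DT: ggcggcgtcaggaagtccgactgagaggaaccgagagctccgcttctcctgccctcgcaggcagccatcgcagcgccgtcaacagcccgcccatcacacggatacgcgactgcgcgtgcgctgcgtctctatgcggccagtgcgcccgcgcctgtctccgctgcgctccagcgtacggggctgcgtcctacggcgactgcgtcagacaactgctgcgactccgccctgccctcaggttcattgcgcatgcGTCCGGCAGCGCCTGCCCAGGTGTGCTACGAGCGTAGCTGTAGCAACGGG
MAN1B1-DT held 0.423, 0.551 and 0.527 CPM untreated and 1.29, 1.55 and 1.25 CPM with auxin (log2 1.45 ± 0.17 SE, adjusted p = 9.94e-06). MAN1B1 itself held 24.1, 27 and 27.7 CPM untreated and 25.6, 24.5 and 21.1 CPM with auxin (log2 -0.14, adjusted p = 0.2). The transcript was separated between groups and its partner gene was not.

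PHLDA1-DT went from 1.00, 1.16 and 1.45 to 2.71, 2.95 and 2.79 CPM (log2 1.25, adjusted p = 3.47e-06), and its partner PHLDA1, an immediate-early gene, rose by 0.20. The call of PHLDA1 was lost with library sizes alone (0.15, adjusted p = 0.1) and without each library other than untreated library 1. CD44-DT rose by 1.18 while CD44, the hyaluronan receptor, stood at 728, 763 and 772 CPM untreated and 743, 758 and 743 CPM with auxin. ZNF692-DT rose by 1.21. Across 379 pairs with both genes tested, the divergent transcript was higher in 134 and lower in 19, and the partner higher in 31 and lower in 43. Where the divergent transcript rose, the partner was higher in 16 pairs, lower in 10 and not called in 108. The median log2 changes were 0.30 and -0.01, and the divergent transcript had the larger log2 change in 300 of the 379 pairs. Across pairs, which are not independent replicates and share the same libraries, the 2 changes had a Pearson r of 0.12. Falls were smaller, as in CHD1-DT (-0.49), ERICH2-DT (-0.51) and TTC12-DT (-0.57, not called without auxin library 2). The count of falls was 13 without auxin library 1 and 12 without auxin library 2. RefSeq windows matched 299 of the 390 transcripts. Median GC was 69.3% in windows of those that rose and 69.0% in windows of those that did not, against 64.0% in windows of tested features and 58.7% in all 35116 windows. The letters TATAAA, on the transcribed strand, were in 1.8% of the windows of each of these groups, in 4.4% of those of tested features and in 7.3% of all windows.

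**Figure D2:**
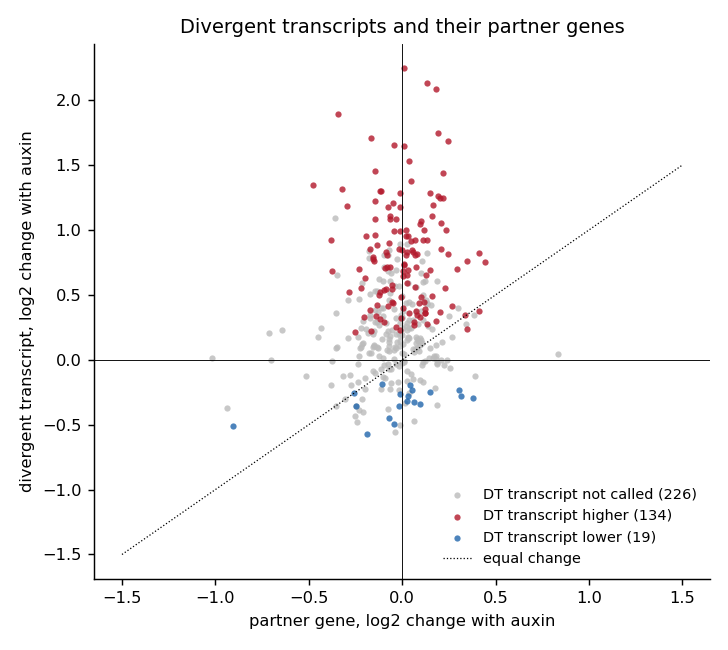
Log2 change with auxin in DIS3-AID chromatin RNA of 379 divergent transcripts (vertical) and of the protein-coding genes they point away from (horizontal); each point is a pair, and the dotted line marks equal change. Called divergent transcripts spread upwards, 134 higher against 19 lower, while partner genes stay near 0.

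Among antisense lncRNAs 203 of 862 rose (23.5%) and 44 fell (5.1%), with a median of 0.14, and 98 and 79 did so in the control line. MALT1-AS1 was separated most clearly, with 0.657, 0.634 and 0.691 CPM untreated against 2.82, 2.87 and 3.07 CPM with auxin (log2 2.14, adjusted p = 4.81e-09). BCL2L1-AS1 rose by 1.47, PROSER2-AS1 by 1.26 and NINJ2-AS1 by 1.14. PYCARD-AS1 fell by 0.65, and in the control line it rose by 0.73. Intergenic LINC transcripts rose in 88 of 601 cases and fell in 46 (median 0.03). These shares, 14.6% and 7.65%, lie near the background of 11.0% and 9.54%, and the count of rises was 58 without auxin library 3. That of falls was 28 without untreated library 2, 30 without auxin library 1 and 26 without auxin library 2. LINC02870 rose by 1.33 and LINC01090 by 1.12, whereas LINC02373 fell by 0.99 and LINC01389 by 1.01.

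Host transcripts of microRNAs rose in 18 of 44 cases (40.9%), beside 11.0% of all features. None fell, with a median of 0.21 (7 higher and 5 lower in the control line). MIR378D2HG held 3.28, 2.99 and 3.26 CPM untreated and 9.84, 10.1 and 8.83 CPM with auxin (log2 1.59 ± 0.09, adjusted p = 1.20e-09), without overlap. MIR181A1HG, which yields miR-181a and miR-181b, rose by 0.79 here and by 0.67 in the control line. Non-coding hosts of snoRNAs rose in 9 of 29 cases (median 0.14), among them SNHG25 (0.78), SNHG19 (0.60) and SNHG26 (0.55). SNHG25 contains SNORA50C, which rose by 0.90.

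Of 14 lncRNAs known to stay in the nucleus 8 rose and none fell (median 0.22), and 5 rose without auxin library 2. LINC-PINT (ENSG00000226380.9), a p53-induced transcript that works with Polycomb, stood at 640, 737 and 709 CPM untreated and at 1055, 1045 and 1035 CPM with auxin (log2 0.59 ± 0.05, adjusted p = 2.73e-07), without overlap. NEAT1, the scaffold of paraspeckles, went from 531, 574 and 538 to 612, 634 and 693 CPM (log2 0.24, adjusted p = 0.00304) and fell by 0.20 in the control line. MALAT1 rose from 3169 to 3901 CPM (log2 0.30, adjusted p = 0.0192) and FTX by 0.30.

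By number of exons in their longest model, lncRNAs with 1 exon rose in 200 of 1075 cases (18.6%) and fell in 23 (2.14%, median 0.15). Those with 2 to 5 exons rose in 617 of 3478 (17.7%) and fell in 176 (5.06%, median 0.11). Those with more than 5 rose in 72 of 632 (11.4%) and fell in 64 (10.1%, median 0.00). The last 2 shares lie near the 11.0% and 9.54% of all features. In the control line the medians of the 3 groups were -0.03, 0.05 and 0.00.

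**Figure D3:**
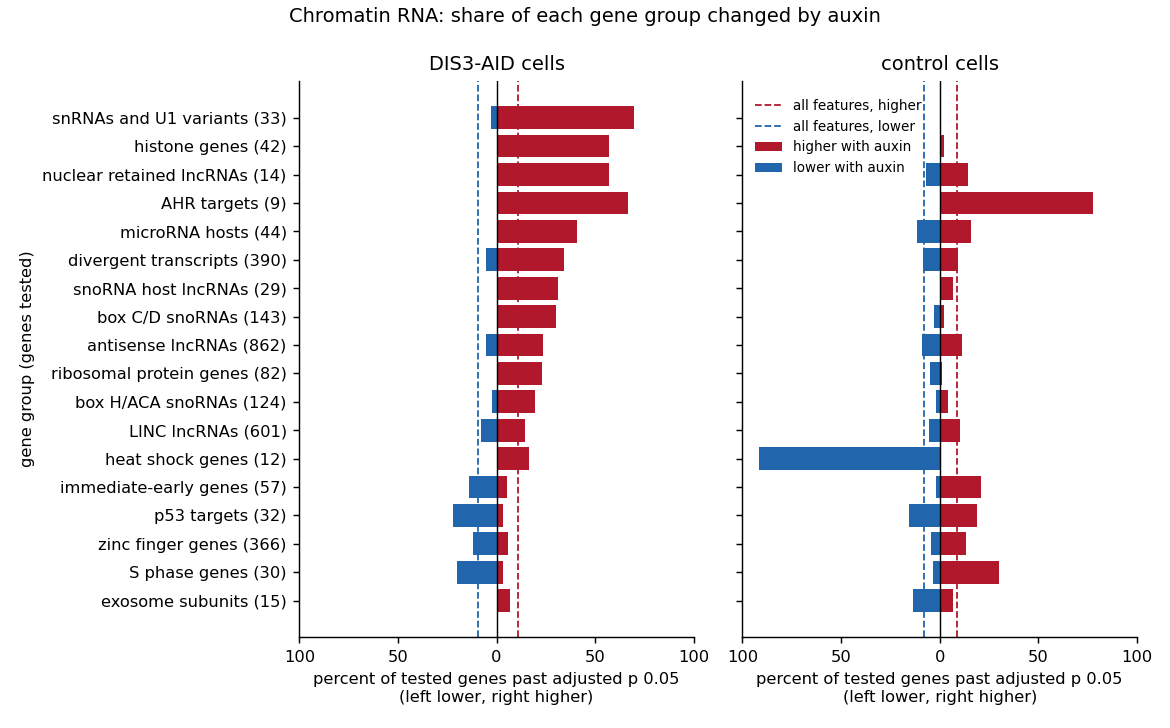
Percent of the tested genes in each gene group that passed adjusted p 0.05 with auxin, higher to the right and lower to the left, in the chromatin RNA of DIS3-AID cells (left panel) and control cells (right panel); the number tested stands beside each name and dashed lines mark all features. The non-coding groups drawn reach past the 11.0% line on the left, AHR targets do so in both panels, and heat shock genes are lower in control cells (11 of 12).

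Genes of replication-dependent histones, whose messengers end in a stem-loop instead of a poly(A) tail, rose in 24 of 42 cases and none fell. The rises were 57.1% of the group, beside 11.0% of all features. The median was 0.40, with 1 higher in the control line. The count of rises in DIS3-AID cells was 15 without auxin library 1 and 13 without auxin library 2. Of the 24, 9 passed the test against the control line. H2BC6 went from 1.70, 1.87 and 2.12 CPM to 3.0, 3.46 and 2.85 CPM (log2 0.71, adjusted p = 0.000229), and H2AC14 from 3.58, 2.91 and 2.88 to 5.29, 4.31 and 4.39 CPM (log2 0.58, adjusted p = 0.00189). Neither overlapped. In the cytoplasm of the same cells 22 of 42 histone genes fell and 1 rose, which was H2BC6 at 1.63.

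Cytosolic ribosomal protein genes rose in 19 of 82 cases (23.2%, beside 11.0% of all features), and none fell (median 0.15). RPL34 had 41.0, 35.7 and 38.5 CPM untreated and 48.2, 48.2 and 50.5 CPM with auxin (log2 0.35, adjusted p = 0.000403). RPL14 rose by 0.34 and RPS13 by 0.33. The count of rises was 12 without untreated library 2 or 3, and with library sizes alone 11 rose and 2 fell. In the cytoplasm 37 of the 82 fell and 1 rose.

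The 10 largest rises among protein-coding genes with at least 1 CPM were of 3 kinds. IGBP1C (4.36-fold) and TMEM107 (2.28-fold) share their span with small RNA genes that rose, RNVU1-34 and SNORD118. CYP1A1, CYP1B1, TIPARP, HAS3 and CRMP1 also rose in the control line. CRMP1, a mediator of semaphorin signals, did so by 1.17 here and by 0.66 there. The rest were the muscarinic receptor CHRM5 (1.06), BOLA1 of mitochondria (0.96) and CHCT1 (0.94). CHRM5 did not pass edgeR's test against the control line (difference 0.75, adjusted p = 0.0503), where its change of 0.31 was not called. BOLA1 went from 1.76, 1.72 and 1.30 to 2.97, 3.14 and 3.32 CPM, without overlap, and it passed the test against the control line (difference 1.05, adjusted p = 0.00179).

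Falls among protein-coding genes stayed near 2-fold. MATN4, a matrix protein, fell from 1.30, 1.70 and 1.89 to 0.702, 0.662 and 0.590 CPM (log2 -1.30, adjusted p = 2.38e-05). DNAH5, an axonemal dynein heavy chain, fell from 5.11, 4.99 and 6.01 to 2.30, 2.17 and 2.05 CPM (log2 -1.29), and in the control line by 0.43. TTC13 fell from 22.7, 23.1 and 23.2 to 11.2, 10.8 and 11.9 CPM (log2 -1.03 ± 0.07, adjusted p = 6.37e-09). None of the 3 overlapped between groups. The prostaglandin transporter SLCO2A1 (-1.12), the testis helicase DDX25 (-1.13), NIPAL2 (-1.05), CCDC168 (-1.07), SLC35G1 (-1.03) and AC004754.1 (-1.11) complete the list with TAF7. CCDC168 (-0.71), SLC35G1 (-0.59), NIPAL2 (-0.46) and TTC13 (-0.44) also fell in the control line. For CCDC168 the difference between the lines did not pass in edgeR (adjusted p = 0.206). MATN4, SLCO2A1 and AC004754.1 were not called in the control line, and DDX25 rose there by 0.47.

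TAF7, a subunit of the general factor TFIID, moved in opposite directions in the 2 lines. It fell from 22.3, 21.9 and 20.3 to 11.9, 9.51 and 9.82 CPM in DIS3-AID cells (log2 -1.04, adjusted p = 2.70e-07). In control cells it rose from 9.43, 8.03 and 9.02 to 17.8, 18.1 and 15.1 CPM (log2 0.94, adjusted p = 3.37e-06). The untreated lines already differed in its level, and the cytoplasmic level in DIS3-AID cells was 33.2 and 35.3 CPM (log2 0.09, adjusted p = 0.313). Its count shares a stretch with SLC25A2. Outside the protein-coding genes AC244517.11 (-1.46, control 1.04), AL031289.1 (-1.01, control 0.84) and LINC01389 (-1.01, control 0.99) showed the same opposition. AC244517.11 (chr5:141136683-141245380) and TAF7 (chr5:141260225-141320821) lie near each other on the minus strand. Whether these 2 moved separately was not tested. Over all features called in both lines, 737 of 1261 had the same direction and 524 the opposite one, of which 363 were lower in DIS3-AID cells and higher in control cells. The log2 changes of the 2 lines, which share no libraries, had a Pearson r of 0.07 across all 24966 features.

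Falls of protein-coding genes varied with gene length. Tested genes were cut by length into 5 equal groups. In the shortest group (up to 11.4 kb) 248 rose (8.48%) and 156 fell (5.33%). In the longest group (from 106 kb) 319 rose (10.9%) and 295 fell (10.1%), near the 11.0% and 9.54% of all features. In the 3 groups between, 147, 116 and 109 rose (5.02%, 3.97% and 3.73%) while 392, 506 and 614 fell (13.4%, 17.3% and 21%). Among all protein-coding genes 6.42% rose and 13.4% fell. The median changes, in order of length, were 0.01, -0.06, -0.06, -0.06 and 0.02. They were -0.04, -0.11, -0.11, -0.11 and -0.03 with library sizes alone and 0.05, -0.02, -0.03, -0.03 and 0.05 with factors from protein-coding genes. The first and last groups lay above the 3 between under each of these scalings, while their sign did not hold. With library sizes alone falls outnumbered rises in all 5 groups, and with factors from protein-coding genes rises outnumbered falls in the shortest (309 and 117) and the longest (456 and 214). The median untreated level was higher in longer genes, from 3.81 CPM in the shortest group to 75.7 CPM in the longest, and its part in the counts was not tested.

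**Figure D4:**
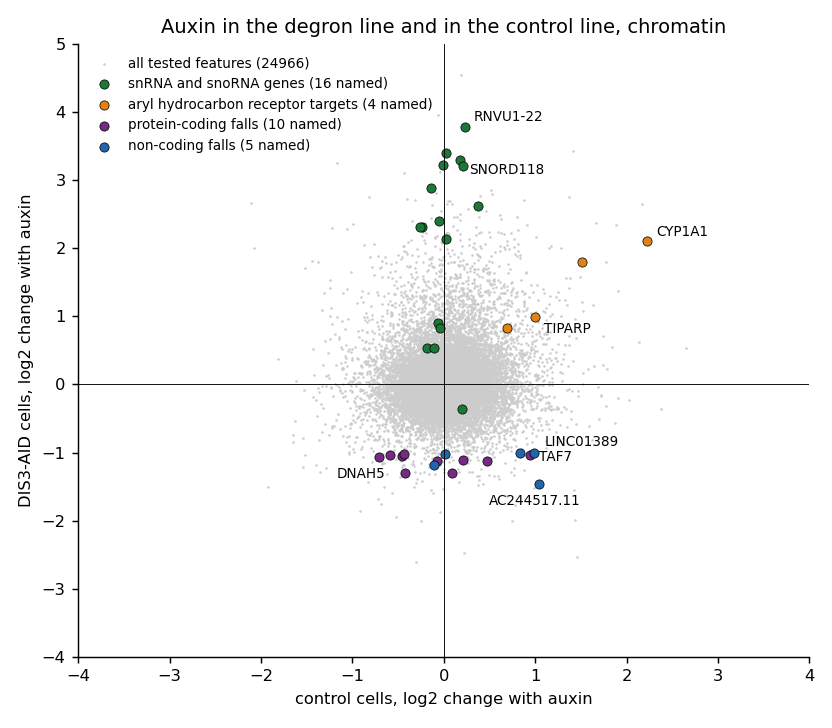
Log2 change with auxin in control cells (horizontal) and DIS3-AID cells (vertical) for all 24966 tested chromatin features (grey), with the named small RNA genes, aryl hydrocarbon receptor targets and falls coloured. The named small RNA genes, all but 1, lie above 0 on the vertical axis and near 0 on the horizontal one, CYP1A1 and TIPARP lie near the diagonal, and TAF7 and AC244517.11 lie at the lower right.

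Targets of the aryl hydrocarbon receptor (AHR), a ligand-activated factor that binds the core GCGTG, rose in both lines. In DIS3-AID cells 6 of 9 rose (66.7%, median 0.83), and in control cells 7 of 9 (median 0.43). The shares of all features that rose were 11.0% and 9.02%. CYP1A1, a monooxygenase of polycyclic aromatics, held 0.835, 0.882 and 1.12 CPM untreated and 3.95, 3.76 and 4.36 CPM with auxin in DIS3-AID cells (log2 2.11 ± 0.14, adjusted p = 7.78e-09). In control cells it went from 1.15, 0.747 and 1.15 to 4.94, 5.05 and 4.88 CPM (log2 2.23). TIPARP, an ADP-ribosyltransferase that represses AHR, rose from 115, 96.2 and 105 to 197, 206 and 223 CPM (log2 0.99), and in control cells also by 0.99. For both genes the auxin libraries lay above the untreated ones in either line. CYP1B1 rose by 1.80 and 1.52, and AHRR, the receptor's repressor, by 0.83 and 0.69. The difference between lines passed in 1 of the 9, NQO1, which was not called in DIS3-AID cells (-0.07, adjusted p = 0.634) and rose by 0.43 in control cells. The promoter windows of CYP1A1 (chr15:74725479-74725778, minus strand) and TIPARP (chr3:156674340-156674639, plus strand), from RefSeq on GRCh38.p14, show the core in capitals on either strand (GCGTG or CACGC).
CYP1A1: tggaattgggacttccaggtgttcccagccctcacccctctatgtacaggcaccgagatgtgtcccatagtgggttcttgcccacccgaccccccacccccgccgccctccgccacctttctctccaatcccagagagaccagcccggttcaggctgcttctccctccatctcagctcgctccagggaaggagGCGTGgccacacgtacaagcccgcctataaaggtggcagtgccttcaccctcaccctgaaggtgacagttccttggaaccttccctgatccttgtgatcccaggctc
TIPARP: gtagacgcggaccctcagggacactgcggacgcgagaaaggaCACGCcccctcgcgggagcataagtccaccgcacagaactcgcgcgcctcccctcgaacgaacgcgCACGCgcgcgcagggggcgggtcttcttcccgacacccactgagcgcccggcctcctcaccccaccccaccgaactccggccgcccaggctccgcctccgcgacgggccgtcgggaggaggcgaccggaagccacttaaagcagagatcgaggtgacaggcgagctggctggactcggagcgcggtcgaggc
The core was in 8 of the 10 windows found for 6 of these genes (80.0%), and in 36.5% of all 35116 windows and 46.2% of those of tested genes. It was in 59.0% of the windows of tested divergent transcripts, whose median GC was 69.0%. The 6 genes include NQO1, which was not called in DIS3-AID cells. The median GC of the 10 windows was 70.5%, against 58.7% for all windows. A match of these letters is a description of the window only.

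Heat shock genes differed between the lines. Of 12 tested, 11 fell in control cells (median -0.44) and none rose, while in DIS3-AID cells 2 rose and none fell (median 0.11). Their summed level was 1005 to 1073 CPM untreated and 679 to 779 CPM with auxin in control cells. In DIS3-AID cells it was 626 to 732 CPM untreated and 695 to 755 CPM with auxin, so the untreated lines already differed. The difference between the auxin effects passed in 10 of the 12. HSPH1, a nucleotide exchange factor of the chaperone HSPA8, fell by 1.26 in control cells and had 60.2 and 64.3 CPM in DIS3-AID cells (log2 0.09, adjusted p = 0.72). HSP90AA1, a cytosolic chaperone, went from 188, 195 and 185 to 161, 148 and 139 CPM in control cells (log2 -0.34, adjusted p = 0.00159). In DIS3-AID cells it held 153, 127 and 132 CPM untreated and 155, 160 and 156 CPM with auxin, a rise of 0.20 (adjusted p = 0.0435) that was not called without any 1 of untreated libraries 2 and 3 or the 3 auxin libraries, nor with library sizes alone (adjusted p = 0.113). The number of heat shock genes that rose in DIS3-AID cells was 4 without untreated library 1 and 1 without each of the other 5 libraries.

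Immediate-early genes, the first to respond to growth signals, numbered 57, of which 3 rose and 8 fell (median -0.11), and in control cells 12 rose and 1 fell (median 0.12). The difference between lines was negative in 13 and positive in none. The untreated lines already differed, with a summed level of 1988 to 2087 CPM in DIS3-AID cells and 2669 to 2896 CPM in control cells. SPRY4, a feedback inhibitor of receptor tyrosine kinases, fell from 153, 165 and 159 to 110, 107 and 122 CPM (log2 -0.49, adjusted p = 8.17e-06), without overlap. HBEGF, an EGF receptor ligand, fell by 0.59 and DUSP6, a phosphatase of ERK, by 0.38. FOS, JUN, EGR1 and MYC were not called in DIS3-AID cells (log2 -0.40, -0.09, 0.26 and -0.22). S phase genes rose in 1 and fell in 6 of 30, and in control cells rose in 9 and fell in 1. E2F1 fell by 0.29, a call lost without untreated library 3 or auxin library 2, and rose by 0.33 in control cells, and MCM6, a subunit of the replicative helicase, fell by 0.27 and rose by 0.22 there. Of 32 p53 targets 1 rose and 7 fell (control 6 and 5), and of 29 ATF4 and unfolded protein response genes 2 rose and 6 fell (control 2 and 4). ATF5 fell by 0.50 and rose by 0.55 in control cells. None of 25 G2/M genes was called by edgeR in DIS3-AID cells (3 at an unadjusted p under 0.05, 1 by DESeq2), with a median of -0.03, and 4 rose and 1 fell in control cells. Of 366 zinc finger genes named by number 21 rose (5.74%) and 43 fell (11.7%), against 49 and 16 in control cells. With factors from protein-coding genes 32 rose and 31 fell in DIS3-AID cells, and with library sizes alone 14 and 61. Over all features 11.0% rose and 9.54% fell in DIS3-AID cells, and 9.02% and 7.97% in control cells. In DIS3-AID cells 5.26% of immediate-early genes rose and 14% fell. These shares were 3.33% and 20% for S phase genes, 3.12% and 21.9% for p53 targets and 6.9% and 20.7% for ATF4 genes. Several of these small counts moved when a library was left out. The falls of S phase genes numbered 3 without untreated library 2 and 2 without untreated library 3 or auxin library 2. Those of ATF4 genes numbered 3 without auxin library 2 or 3. Immediate-early genes that rose numbered 1 without untreated library 2 or 3 or auxin library 1 or 3. The rises of zinc finger genes numbered 10 to 13 without untreated library 2 or 3 or auxin library 2 or 3, and the falls 24 to 26 without untreated library 3 or auxin library 2 or 3. The median difference between lines for immediate-early genes was -0.29, and -0.36 and -0.26 with library sizes alone and with factors from protein-coding genes.

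The exosome's own genes stayed near their untreated levels. Of 15 subunits and partners, changes ranged from -0.09 to 0.15 and the median was 0.01. EXOSC10, the other nuclear ribonuclease, had 81.4, 87.9 and 86.5 CPM untreated and 82.9, 79.7 and 77.6 CPM with auxin (log2 -0.09, adjusted p = 0.321), which overlap. The 1 called was DIS3L2, a related exonuclease that works outside the exosome, from 438, 410 and 395 to 449, 468 and 465 CPM (log2 0.15, adjusted p = 0.0396), and its adjusted p was 0.0644 with only the 6 libraries of the comparison fitted and 0.113 with library sizes alone. The call was also lost without untreated library 2 or 3 and without auxin library 2 or 3. Among 25 adaptors and nuclear decay factors, ZC3H4, which restricts non-coding transcription, rose from 98.1, 114 and 105 to 150, 140 and 135 CPM (log2 0.42, adjusted p = 0.000116), and SRRT (ARS2) fell by 0.17. The SRRT call was lost with factors from protein-coding genes (adjusted p = 0.079), with only the 6 libraries (0.0512) and without each library other than untreated library 1. Of 36 cleavage, polyadenylation and Integrator factors 2 rose (5.56%) and 4 fell (11.1%), beside 11.0% and 9.54% over all features. With scaling factors from protein-coding genes 4 rose and 1 fell, and with library sizes alone 1 rose and 7 fell. Of 35 ribosome biogenesis factors 1 fell, and of 37 mitochondrially encoded genes 2 rose (8 in control cells), a count that ran from 0 to 5 with a library left out. The counts for cleavage factors ran from 0 to 4 higher and 0 to 5 lower in the same way.

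In the cytoplasm of the same cells, fitted on its own 12 libraries, 4854 of 23027 features were higher with auxin (21.1%) and 3040 lower (13.2%), with 3407 (14.8%) and 21 (0.0912%) at least 2-fold. Divergent transcripts rose in 312 of 379 cases there (median 1.32), against 134 of 390 on chromatin (median 0.29). The snRNA and variant U1 genes rose in 31 of 32 (median 2.30), against 23 of 33 (1.32). RNVU1-22 went from 4.23 to 34.7 CPM in the cytoplasm (log2 3.04) and SNORD118 from 2.69 to 14.6 CPM (log2 2.43). MIR378D2HG rose by 3.83 in the cytoplasm and by 1.59 on chromatin. LINC-PINT went from 33.3 to 115 CPM in the cytoplasm (log2 1.79), and its chromatin level was above that in both states.

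The chromatin response minus the cytoplasmic response was tested in 1 fit over the 12 libraries of each fraction. It was higher in 6051 of 27418 features (22.1%) and lower in 3029 (11.0%), with a median of 0.16, but these counts follow the scaling. With TMM factors set within each fraction 1224 were higher, 4081 were lower and the median was -0.05, and with library sizes alone 379 were higher and 5520 lower (median -0.17). At 2-fold or more, 220 were higher on chromatin (0.802%) and 2173 lower (7.93%). Divergent transcripts were lower on chromatin in 213 of 390 cases and higher in 12 (median -0.82), and lower in 240 and higher in 4 with factors within each fraction (median -1.03). Assembled loci had medians of -1.32 and -1.52 under the 2 choices. Histone genes were higher on chromatin in 37 of 42 (median 0.74), and in 31 with factors within each fraction (0.53). The snRNA and variant U1 list was lower in 14 and higher in 2 of 33 (median -0.76; 16 and 2 with factors within each fraction), with RNVU1-22 among the 2 that were higher (0.93, adjusted p = 0.00509). SNORD118, a box C/D gene, was also higher on chromatin (1.05, adjusted p = 0.011). So was BCYRN1 (1.36, adjusted p = 1.14e-07), as were CYP1A1 (0.83) and TIPARP (0.83). In bulk RNA a difference between fractions cannot be told apart from a change in how cleanly they were separated.

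**Figure D5:**
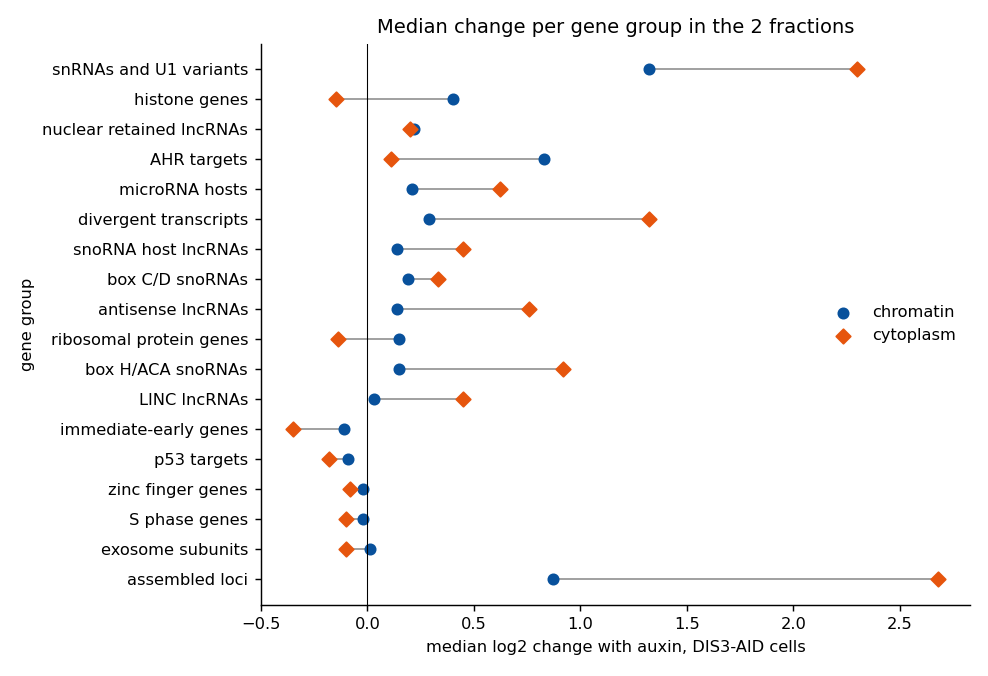
Median log2 change with auxin in DIS3-AID cells for 17 gene groups and the assembled loci, on chromatin (blue circles) and in the cytoplasm (orange diamonds), each from the fit of its own fraction. Divergent transcripts have medians of 0.29 and 1.32, and histone genes 0.40 and -0.15.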

How the data were processed

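Total RNA depleted of ribosomal RNA was sequenced from stranded libraries on a NovaSeq, per the labels. The deposited tables hold whole-number read counts per feature, 1 table per library, for 59607 features, of which 58174 are Ensembl genes (57836 found in GENCODE 29). The submitters' processing notes name STAR 2.7.3a, Cufflinks 2.2.1 and featureCounts 2.0.0 on hg38; their settings, including strand and the handling of reads that fit several places, are not given in the sources used here. Reads shared by near-identical genes can therefore be split or lost.

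The 12 chromatin libraries were fitted together in edgeR 4.0.16 (R 4.3.3): filterByExpr with min.count 10, TMM (factors 0.969 to 1.035), robust quasi-likelihood tests, Benjamini-Hochberg over 24966 features. The coefficient of variation was 6.5%. Cytoplasm had its own fit, and both fractions a joint one. DESeq2 1.42.0 was an alternative. Shares were compared by exact permutation. Replicates differed beyond counting error (chi-square per degree of freedom 4.45 to 19.2 in DIS3-AID chromatin), so no 2 were counted as 1. The test was checked on simulated counts, with 50 changes at each size. It recovered 11 at 1.2-fold, 34 at 1.5-fold, 42 at 2-fold and 48 at 4-fold, with 6 false calls. Small changes can therefore go uncalled.

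Named genes had adjusted p under 0.05, no overlap and at least 1 CPM in the higher group, ranked by size (10 rises and 10 falls protein-coding, 10 and 5 other, up to 4 and 3 in each of 31 lists), plus exosome subunits and partners of named divergent transcripts; others in the text were chosen after their values were seen. The members and lists were chosen with earlier results of these data known. The polyA libraries were not analysed here.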

Additional observations from a re-analysis of the deposited data

Results flagged for a closer look

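The difference between the lines, taken as the DIS3-AID response to auxin less the control response, was tested directly, and it was positive in 2131 features and negative in 2298. All log2 differences named here passed that test in edgeR (adjusted p under 0.05). Among small RNA genes the difference was 3.55 for RNVU1-22, 3.39 for RNVU1-25, 3.23 for RNVU1-14, 3.12 for SNORD118, 3.03 for the U3 copy in TEX14, 2.99 for RNVU1-34, 2.46 for RNVU1-27 and 2.26 for RNVU1-19. AC245014.3, which contains RNVU1-14, stood at 3.16, and BX293535.1, which also rose in control cells, at 1.83.

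Among protein-coding genes that rose, the difference was 1.95 for IGBP1C, 1.17 for TMEM107, 1.05 for BOLA1 and 0.56 for CHCT1. It was -0.48 for HAS3, a hyaluronan synthase that rose in both lines and more so in control cells.

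Among genes that fell, TAF7 stood at -1.98, DDX25 at -1.60, MATN4 at -1.38, AC004754.1 at -1.32, SLCO2A1 at -1.04, DNAH5 at -0.87, NIPAL2 at -0.59, TTC13 at -0.59 and SLC35G1 at -0.44. Outside the protein-coding genes the difference was -2.50 for AC244517.11, -2.0 for LINC01389, -1.85 for AL031289.1, -1.08 for AC024884.2 and -1.03 for LINC02626. TAF7, DDX25, AC244517.11, LINC01389 and AL031289.1 fell in DIS3-AID cells and rose in control cells.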

How the results depend on the processing

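Over 14 alternatives, 96 of the 126 called named genes kept call and direction in each that gave a value, and none changed direction. Of the other 30, each lost the call when some library was left out, and 15 lost it under another setting. With min.count 50 the features at least 2-fold changed were 267 higher and 26 lower, and with Ensembl genes only 319 were higher. The chromatin minus cytoplasm test gave 1224 higher and 4081 lower with TMM within each fraction, and 379 higher and 5520 lower with library sizes alone. The mitochondrial share differed by -0.0112 percentage points without untreated library 3. Leaving out 1 library at a time gave 1914 to 2556 higher and 1683 to 2250 lower for auxin in DIS3-AID cells, with 682 to 765 and 73 to 89 at least 2-fold. For control cells it gave 1216 to 2373 higher and 1097 to 2331 lower, with 1216 and 1097 without untreated control library 3, and 1389 and 1208 without auxin control library 1. For the difference between lines it gave 1410 to 2420 higher, with 1410 without DIS3-AID auxin library 2, and 1649 to 2531 lower. For chromatin minus cytoplasm the ranges were 4730 to 6407 and 2754 to 2938. Shares differed by 0.498 to 0.643 percentage points for lncRNAs, 0.192 to 0.212 for assembled loci, 0.0146 to 0.0194 for snoRNAs, 0.000197 to 0.00132 for snRNAs, -0.876 to -0.723 for protein-coding genes, -0.0237 to -0.00825 for pseudogenes and -0.0112 to 0.0468 for mitochondrial genes. Same-numbered libraries did not deviate together (r from -0.174 to -0.022 over 3 pairs), so the numbers do not pair them. A fit with the replicate number as a block gave 2465 higher and 2134 lower for auxin in DIS3-AID cells. The cause of these shifts was not tested. Variant U1 and U8 genes with under 1 CPM untreated rest on few counts there.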
